A study of Mus musculus with 2 samples.

Results

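Schwann cells are the glia of peripheral nerves, and this account follows 7 of their genes through the cells of the mouse salivary gland: Mbp, Pmp22, Sox10, S100b, Ngfr, Scn7a and Gfap. The genes were chosen by name, with no measured value in the rule but with earlier results of these data known. All 7 were found among the 20140 genes of the tables. Each was read in the Schwann-like cluster, numbered 9, and in the 11 other clusters of the gland's cells. The glands came from female C57BL6/J mice aged 14 weeks. In the ligated group a metal clip closed the ducts that drain the submandibular and sublingual glands for 14 days, and in the mock group the ducts were found at surgery but not clipped, with tissue taken after the same 14 days. Each group is 1 droplet library pooled from 2 glands, so no difference here carries a test, and each describes these 2 libraries. Both libraries had been depleted of cells bearing EpCAM, an epithelial surface protein, of cells bearing Ter119, a red cell protein, and of dead cells. A share of cells below is therefore a share of the remaining cells.

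A Schwann cell either wraps a single large axon in myelin or, as a non-myelinating (Remak) cell, holds several small axons in pockets of its surface. Salivary glands receive mostly thin autonomic nerve fibres, whose Schwann cells are largely of the second kind. Sox10 is the transcription factor that all cells of the lineage need. S100b, a calcium-binding protein, is a general Schwann marker. Mbp and Pmp22 are proteins of compact myelin. Ngfr, the low-affinity neurotrophin receptor p75, Scn7a, a sodium-channel family protein, and Gfap, an intermediate filament, are markers of non-myelinating and, for Ngfr and Gfap, of injured Schwann cells.

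Values are mean levels over the cells of a cluster, in unique molecular identifiers (UMIs, one per captured RNA molecule) per 10000 UMIs of the cell. Cluster 9 held 271 ligated cells, 2.38% of 11406 (exact binomial 95% interval 2.10% to 2.67%), and 17 mock cells, 0.405% of 4199 (0.236% to 0.647%). These intervals cover counting error only. The ligated value of a gene therefore rests on many more cells than its mock value. The total UMIs of all 17 mock cells could be recovered and ran from 2356 to 23497 with a median of 4641. One UMI in a single mock cell moved the mock mean by 0.127 at the median, and 3 UMIs of average weight set a floor of 0.426; a UMI weighs less in a deeper cell. For 211 of the ligated cells a total was recovered, with a median of 3847, and 1 UMI there moved the ligated mean by 0.00959. The label of the cluster was checked on 14 Schwann markers, of which 11 reached a level of at least 0.5. Its leading genes by fold over the other clusters included Kcna1, Kcna2, Matn2, Scn7a and Chl1. In GENCODE's annotation of GRCm38, Pmp22 lies at chr11:63128982-63159547, Sox10 at chr15:79154908-79165240, S100b at chr10:76253853-76261159, Ngfr at chr11:95568818-95587735, Scn7a at chr2:66673425-66784914 and Gfap at chr11:102887336-102900912. None of the 7 genes shares exonic bases with another gene on either strand.

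Pmp22 is known to be transcribed from an upstream start used mainly by myelinating Schwann cells and from downstream starts used in many tissues, and of the 7 genes it was the one most widely spread over other cells, so the sequences before its first and second RefSeq starts are shown. The first lies at chr11:63128732-63128981 and the second at chr11:63131207-63131456, both on the plus strand of GRCm38.p6. Capitals mark each CG pair.
Pmp22 first start: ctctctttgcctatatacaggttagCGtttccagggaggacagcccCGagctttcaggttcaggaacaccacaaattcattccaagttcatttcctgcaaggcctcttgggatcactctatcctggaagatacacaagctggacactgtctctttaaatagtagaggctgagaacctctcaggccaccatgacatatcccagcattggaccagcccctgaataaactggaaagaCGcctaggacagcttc
Pmp22 second start: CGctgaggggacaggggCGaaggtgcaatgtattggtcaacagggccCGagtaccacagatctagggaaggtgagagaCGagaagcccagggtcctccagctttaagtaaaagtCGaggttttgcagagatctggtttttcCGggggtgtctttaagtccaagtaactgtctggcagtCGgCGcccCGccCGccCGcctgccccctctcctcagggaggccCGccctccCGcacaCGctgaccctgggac
The first window held 3 CG pairs and 48.8% G or C, and the second 14 pairs and 61.2%. The other windows of Pmp22 held 14 and 27 pairs, and the median over 32851 promoters was 6 pairs and 52.4% G or C. RefSeq's table held 8 starts for 5 of the 7 genes. The letters ACAAAG and ACAATG, which resemble SOX binding motifs, were searched on both strands of the 250 bases before each start. They were in 0 of these 8 windows, and in 16.5% and 10.7% of all windows. The tables give 1 level per gene, so the starts of Pmp22 cannot be told apart in the levels that follow.

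All 7 genes had their highest level in the Schwann-like cluster, in both libraries together and in each library alone. Of the 6777 genes with a cluster mean of at least 0.5, 14.9% were highest there. Clusters are drawn from the cells' expression, so this place is a description. Sox10, the lineage factor, stood at 5.21 (ligated) and 5.10 (mock) in Schwann-like cells. Elsewhere its highest level was 0.302, in ligated cells of cluster 8, an unnamed cluster led by acinar genes, and 8 of the 11 other mock clusters listed it at 0. S100b stood at 6.59 (ligated) and 10.38 (mock) in Schwann-like cells, and at no more than 0.305 in any other of the 12 clusters in either library. The 2 libraries thus gave close values for Sox10, while the mock value of S100b was the higher one.

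The non-myelinating markers also had lower levels elsewhere. Gfap stood at 0.757 (ligated) and 0.695 (mock) in Schwann-like cells, all 11 other mock clusters listed it at 0, and its highest ligated level elsewhere was 0.0637, in cluster 8. Ngfr stood at 1.49 (ligated) and 0.961 (mock) in Schwann-like cells. Its highest level elsewhere was 0.0893, in ligated cells of cluster 11, an unnamed cluster led by cell-cycle genes and the neutrophil genes S100a9 and S100a8. Scn7a reached 35.3 (ligated) and 31.2 (mock) in Schwann-like cells, and it was also present in the fibroblast-like cluster, at 2.997 in ligated and 3.33 in mock cells. In the authors' separate clustering of a stromal subset, its level was 3.16 ligated and 3.39 mock in the largest subset cluster. Fibroblast-like cells thus carried Scn7a in both libraries, at about the same level.

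The myelin genes were the least restricted of the 7. Mbp stood at 3.67 (ligated) and 8.65 (mock) in Schwann-like cells. Its next level was in the T-like cluster, at 0.721 ligated and 0.683 mock. Clusters 8 (0.593 and 0.117) and 11 (0.437 and 0.0971) held it too. Macrophage-like cells had 0.359 and 0.434, and natural killer (NK)-like cells 0.327 and 0.293. The Mbp locus is known to give rise also to golli transcripts, which are expressed in immune cells, and the tables do not separate them. Pmp22 stood at 8.67 (ligated) and 15.6 (mock) in Schwann-like cells. It was also found at 3.08 and 3.75 in the mural-like cluster, at 2.90 and 4.02 in the fibroblast-like cluster, and at 0.910 and 1.28 in the larger endothelial-like cluster. Pmp22 was lower in the ligated library in all 4 of these clusters.

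**Figure D1:**
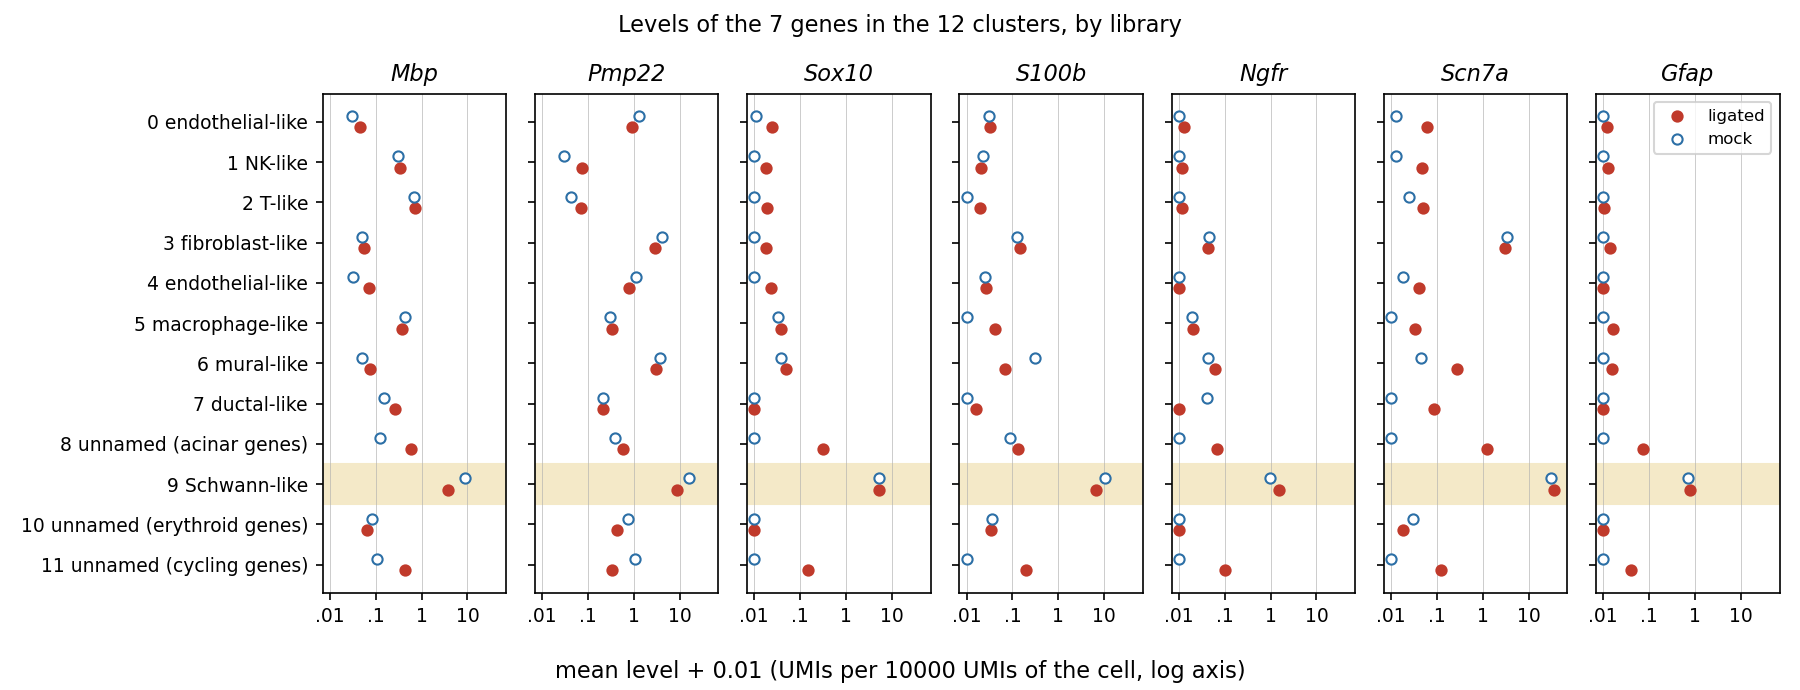
Mean level of each gene plus 0.01 on a log axis, in UMIs per 10000 UMIs, in the 12 clusters (rows) of the ligated library (filled red) and the mock library (open blue), 1 library each and so without error bars; the Schwann-like row is shaded. Every gene is highest in the shaded row, and Mbp, Pmp22 and Scn7a also show levels in named clusters other than Schwann-like cells.

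Because the Schwann-like cluster was small, a gene could be highest there and still have most of its RNA in other cells. Multiplying each mean by the number of cells, the Schwann-like cells held 86.6% of the summed level of Sox10 over both libraries, 82.6% of Gfap, 79.3% of S100b, 77.0% of Ngfr and 67.3% of Scn7a. They held 25.9% of Mbp, less than the NK-like cluster at 29.4% and close to the T-like cluster at 25.2%. Of Pmp22 they held 16.4%, against 35.9% in the larger endothelial-like cluster and 25.7% in the fibroblast-like cluster. These pooled shares follow the ligated library, which held most of the Schwann-like cells. In the mock library alone, with its 17 Schwann-like cells, the shares were 100% for Gfap, 91.4% for Sox10, 56.1% for S100b, 45.8% for Ngfr, 45.0% for Scn7a, 24.8% for Mbp and 5.23% for Pmp22. In the ligated library they were 81.8%, 86.4%, 82.7%, 79.2%, 69.2%, 26.1% and 21.7% in the same order. Most of the summed level of Pmp22 and Mbp thus lay outside Schwann-like cells in both libraries, and that of Ngfr and Scn7a in the mock library, where fibroblast-like cells held 53.2% of Scn7a.

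**Figure D2:**
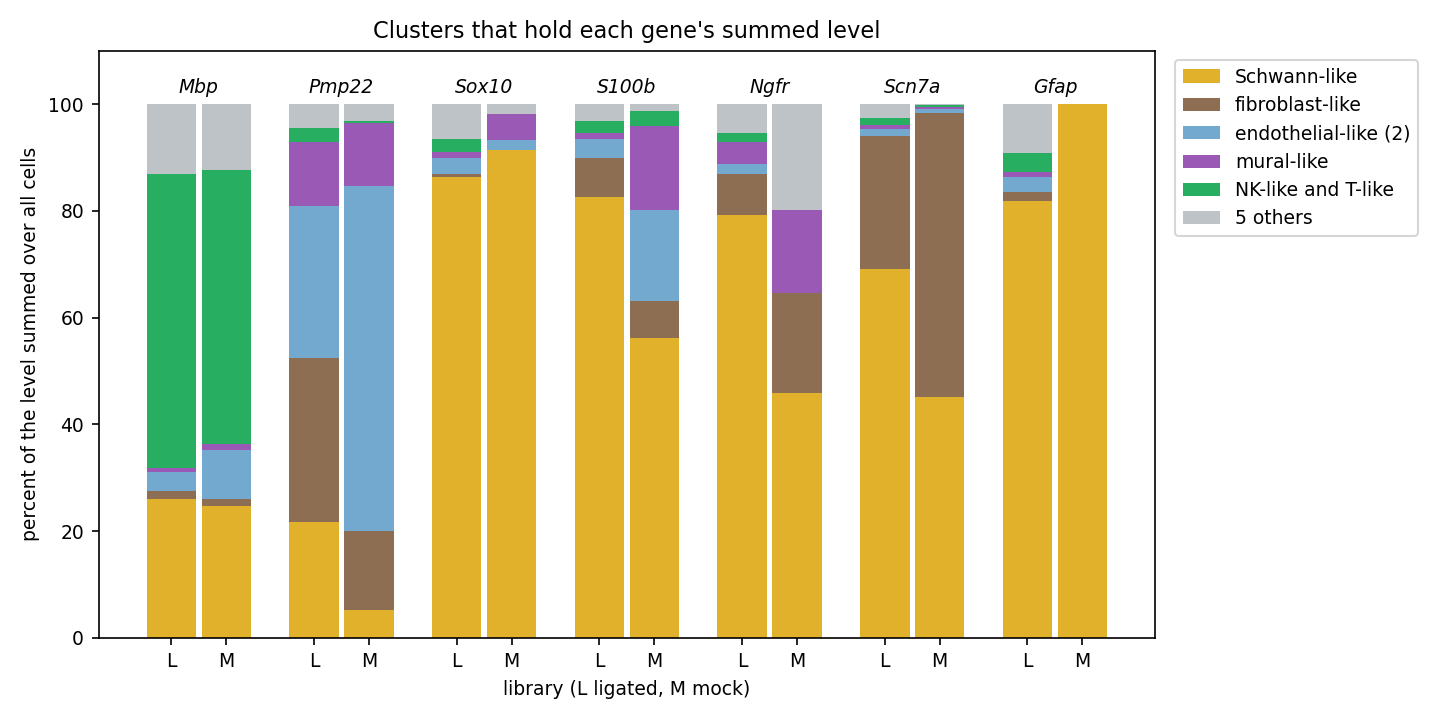
Percent of each gene's level, summed over all cells, that falls in the Schwann-like, fibroblast-like, both endothelial-like, mural-like, NK-like and T-like, and the 5 other clusters, for the ligated (L) and mock (M) library, with 1 library each. The Schwann-like part is the largest for Sox10, S100b, Ngfr and Gfap in both libraries and is 26.1% and 24.8% for Mbp.

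The patterns over the 12 clusters were compared between the genes. As a description over 12 clusters that share libraries and depth, Pearson's r of log2(level + 0.1) was 0.994 between Ngfr and S100b, 0.991 between Gfap and Sox10, and 0.984 between Gfap and Ngfr. Outside the Schwann-like cluster, Gfap, Ngfr and S100b reached at most 0.058, 0.065 and 0.134 over both libraries, near or below the added 0.1. High r values among such genes therefore rest largely on the Schwann-like cluster. Between the myelin genes Pmp22 and Mbp r was 0.093. Mbp was closer to Sox10 (0.824), Gfap (0.816) and Ngfr (0.770), and Scn7a had 0.846 with Sox10 and 0.852 with Gfap. The genes most like Gfap were Matn4 (0.999), Col20a1 (0.998) and Kcna1 (0.997). Those most like Sox10, after Gfap, were Slitrk6 and Gfra3, a GDNF-family receptor, at 0.985 each. Ngfr and S100b were each other's nearest gene, and Kcna1, a potassium channel, was among the nearest of both. The genes most like Pmp22 were Tead1 (0.97), Dag1, the laminin receptor dystroglycan (0.96), and Vcl, the adhesion protein vinculin (0.96). Those most like Mbp were Pithd1 (0.95), Acsbg1 (0.92) and Iqgap2 (0.88), and among those most like Scn7a were Col16a1 (0.993) and Col12a1 (0.985).

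Some relatives of the 7 genes were also highest in Schwann-like cells, and others were not. Of the 13 S100 genes in the tables, S100b was the only one highest in the Schwann-like cluster, while S100a6, at 27.6 (ligated) and 38.8 (mock) in Schwann-like cells, was higher in fibroblast-like cells. Of the Pmp22 family, Emp2 was also highest in Schwann-like cells (3.71 ligated, 5.02 mock), and Emp1 was highest in fibroblast-like cells. Sox8, of Sox10's family, stood at 0.0994 and 0.251, under the mock floor but highest in Schwann-like cells, and Sox9 at 0.00338 and 0. Of Gfap's filament family, Vim was highest in Schwann-like cells, at 21.9 and 27.5. Counting Scn7a, 3 of the 11 sodium channel subunits in the tables were highest in Schwann-like cells. Counting Ngfr, so were 2 of the 10 neurotrophin receptors and ligands. These family counts used no minimum level, and without one 3057 of all 20140 genes were highest there. Nothing particular to the families is read from the counts.

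Between the libraries, Mbp was the gene of the 7 that differed most in the Schwann-like cells. The size rule asked for a level of 0.5 or more in at least 1 library and for an absolute value of log2((ligated + 0.1)/(mock + 0.1)) of 1 or more. By it, 13% of the 4401 genes that entered were higher in the ligated cells and 8.91% lower, with a median difference of 0.03, that is 571 and 392 genes. Once 18.4% of the ligated library's average profile was taken off, and 0% of the mock library's, 343 were higher and 688 lower. That step lowered only ligated levels. Of the 7 genes, 1 was lower, Mbp, with a log2 difference of -1.21, and 0 were higher. Pmp22 (-0.84), S100b (-0.65), Sox10 (0.03), Scn7a (0.18), Gfap (0.11) and Ngfr (0.58) did not reach the rule. With 1 of 7 beside a background of 8.91%, nothing particular to these genes is read from the count.

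The wider myelin list held 22 genes in the tables, of which 12 entered, with 5 lower, 1 higher and a median of -0.85. Besides Mbp, the lower genes included Mal, a myelin lipid-raft protein (5.60 against 12.8), Pllp, plasmolipin (0.139 against 0.750), and Ncmap, a non-compact myelin protein (0.220 against 1.05). Cnp, an enzyme of myelinating glia (-0.86), lay within the rule. Pou3f1, a factor that marks the promyelinating stage, was the higher one, at 2.45 against 0.633. Of the 12 genes, 10 had the lower value in the ligated cells, as did 2126 of all 4401 genes that entered.

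The non-myelinating list of 11 genes all entered, with 1 lower, 0 higher and a median of 0.11. L1cam, an axon-contact adhesion molecule, stood at 4.46 in both libraries, and Chl1, its close homologue, at 10.9 ligated and 10.2 mock. Ncam1 was the lower one, at 5.09 against 13.1 (-1.34). Gap43, a growth-cone protein (2.49 against 1.38), did not reach the rule. Among the 7 genes themselves, the summed level of Mbp and Pmp22 over that of Ngfr, Scn7a and Gfap was 0.329 in ligated and 0.739 in mock cells. Scn7a made most of the latter sum, 35.3 of 37.6 in ligated and 31.2 of 32.8 in mock cells.

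Of 17 lineage identity genes, 16 entered, with 1 higher (Sox2, a factor of immature Schwann cells, 0.864 against 0.253), 1 lower (Col28a1, 0.324 against 1.52) and a median of -0.29. Sox2 also stands in the repair list. The repair list had 19 genes with a row, and of these 8 entered, with 4 higher and 1 lower: Sox2, Btc, a growth factor (0.822 against 0.204), Runx2 (0.546 against a listed 0) and Tnc, a matrix protein (0.524 against 0.190) were higher, and Atf3, an injury-induced factor (0.949 against 3.37), was lower. The mock values of these 4 higher genes lay under the floor of 0.426 and rested on at most 2 UMIs each. Jun, the factor that drives the repair state, stood at 6.27 against 7.13. Of 18 genes for signals from axon and matrix 14 entered and 3 were lower: Itgb4, a laminin receptor of myelinating cells (1.30 against 3.33), Ntrk2 (0.0730 against 0.770) and Ntrk3 (0.0148 against 1.03). Of 12 genes of sterol synthesis, which supplies myelin's cholesterol, 8 entered and 5 were lower, with a median of -1.13.

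**Figure D3:**
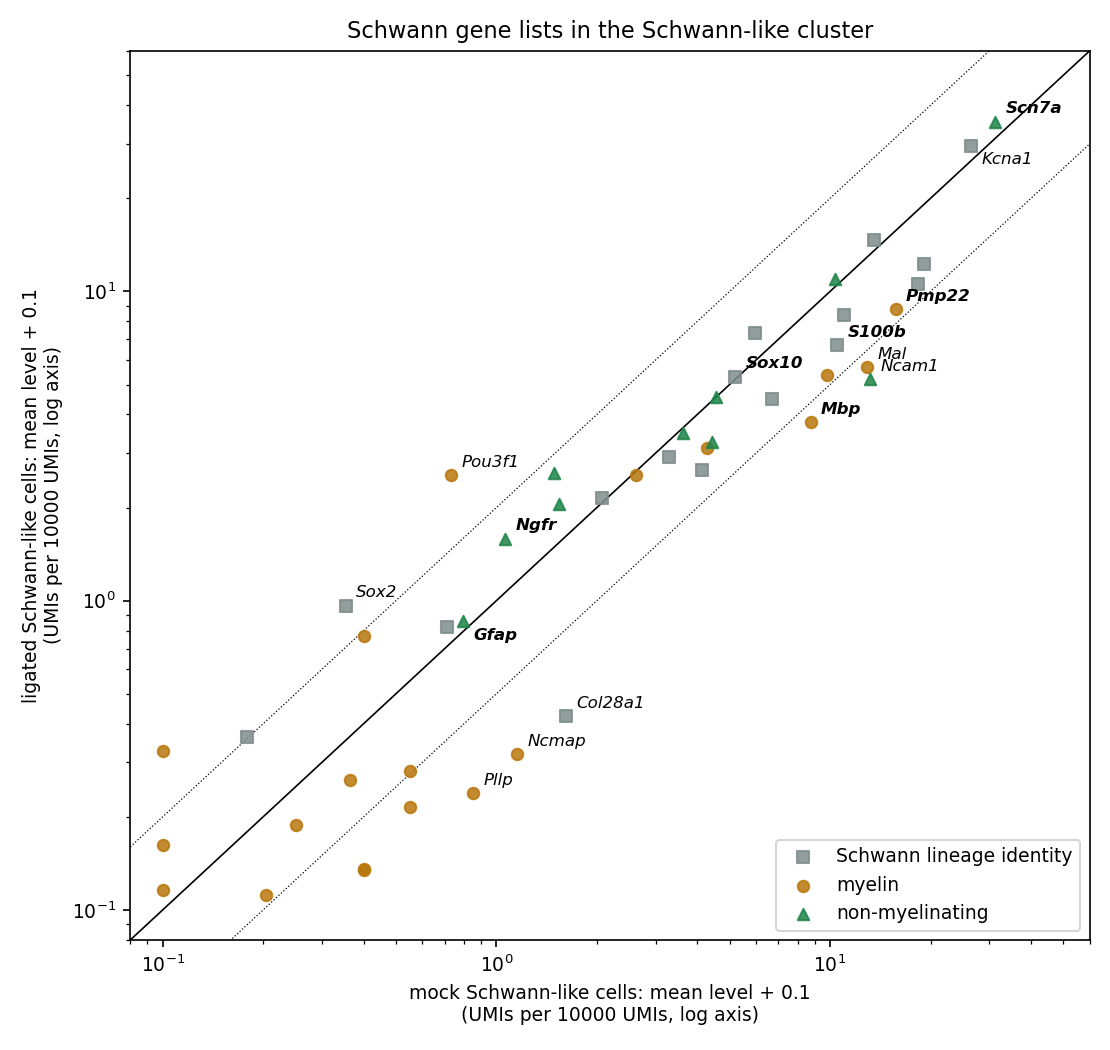
Mean level plus 0.1 in the Schwann-like cells of the mock library (horizontal) and of the ligated library (vertical), in UMIs per 10000 UMIs, both on log axes, for reported genes of the myelin (circles), non-myelinating (triangles) and lineage identity (squares) lists, with the 7 genes in bold; the solid line is equality and the dotted lines a ratio of 2 either way. Mbp lies below the lower dotted line at 8.65 mock and 3.67 ligated, while Sox10, Scn7a and Gfap lie on or near the line of equality.

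The 17 mock cells could be examined one by one for genes at a low level. Where a gene's mock mean is at most 1.1, only 1 assignment of whole UMIs to cells gave the deposited mean for 7930 of 7936 genes. Ngfr had 7 UMIs, 1 in each of 7 of the 17 cells (41.2%, exact binomial 95% interval 18.4% to 67.1%). Gfap had 6 UMIs in 4 cells (23.5%, 6.81% to 49.9%), with 3 of them in 1 cell of 5150 UMIs. Only the cell of 4689 UMIs held both. The mock levels of these markers were thus spread over several cells but rested on few UMIs.

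The low myelin genes were not spread in this way. Of the 11 myelin genes whose UMIs were placed, 8 had all of them in a single cell of 3919 UMIs: Ncmap with 7, Pllp with 5, Prx and Drp2 with 3 each, Egr2, Fa2h and Gldn with 2 each, and Dusp15 with 1. Prx and Drp2 tie the myelin sheath to the basal lamina, Egr2 is the factor that switches on the myelin genes, and Fa2h makes myelin lipids. Of all 7930 genes placed, 1.56% lay in that cell alone. It held 26 of the 33 placed myelin UMIs (78.8%) and 4.20% of the UMIs of the 17 cells. It held no UMI of Ngfr or Gfap, and neither did several other mock cells. Ngfr was in 7 and Gfap in 4 of the 17 cells, so nothing is read from their absence in 1 cell. Pou3f1 had 5 UMIs in 4 other cells. The cell was singled out after its values were seen.

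Without that cell the mock levels of Pllp and Ncmap were 0, their log2 differences turned to 1.26 and 1.68, and neither reached a level of 0.5. Gldn, at 0.671 in ligated cells, went from 0.300 to 0 in the mock cells and from 0.95 to 2.95 on the log2 scale, past the rule as a higher gene. Of the 5 lower genes, the other 3, Mbp and Mal among them, could not be recomputed without it. The UMIs of Mbp, Mal, Pmp22 and S100b could not be placed. None of the 17 cells could hold all of the Mbp or Pmp22 UMIs, since the mean then gives no whole count. For the other 16 mock cells to average the ligated level, that cell would need about 34.6 UMIs of Mbp, 0.882% of its total, or 49.7 of Pmp22 and 27.8 of S100b. How many it held was not measured. Whether the lower Mbp of the ligated cells rests on that 1 mock cell was not tested.

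The 9 mock UMIs of the neurotrophin receptors Ntrk2 and Ntrk3 were in 4 cells. Of these UMIs, 8 were in the cells of 2356, 2894 and 3480 UMIs, which held none of Ngfr or Gfap. The remaining UMI was in the cell of 5776 UMIs, which also held 1 UMI of Ngfr. Ngfr was in 7 and Gfap in 4 of the 17 cells, and several cells without Ntrk2 or Ntrk3 also lacked both. No separate group of cells is read from these few UMIs.

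**Figure D4:**
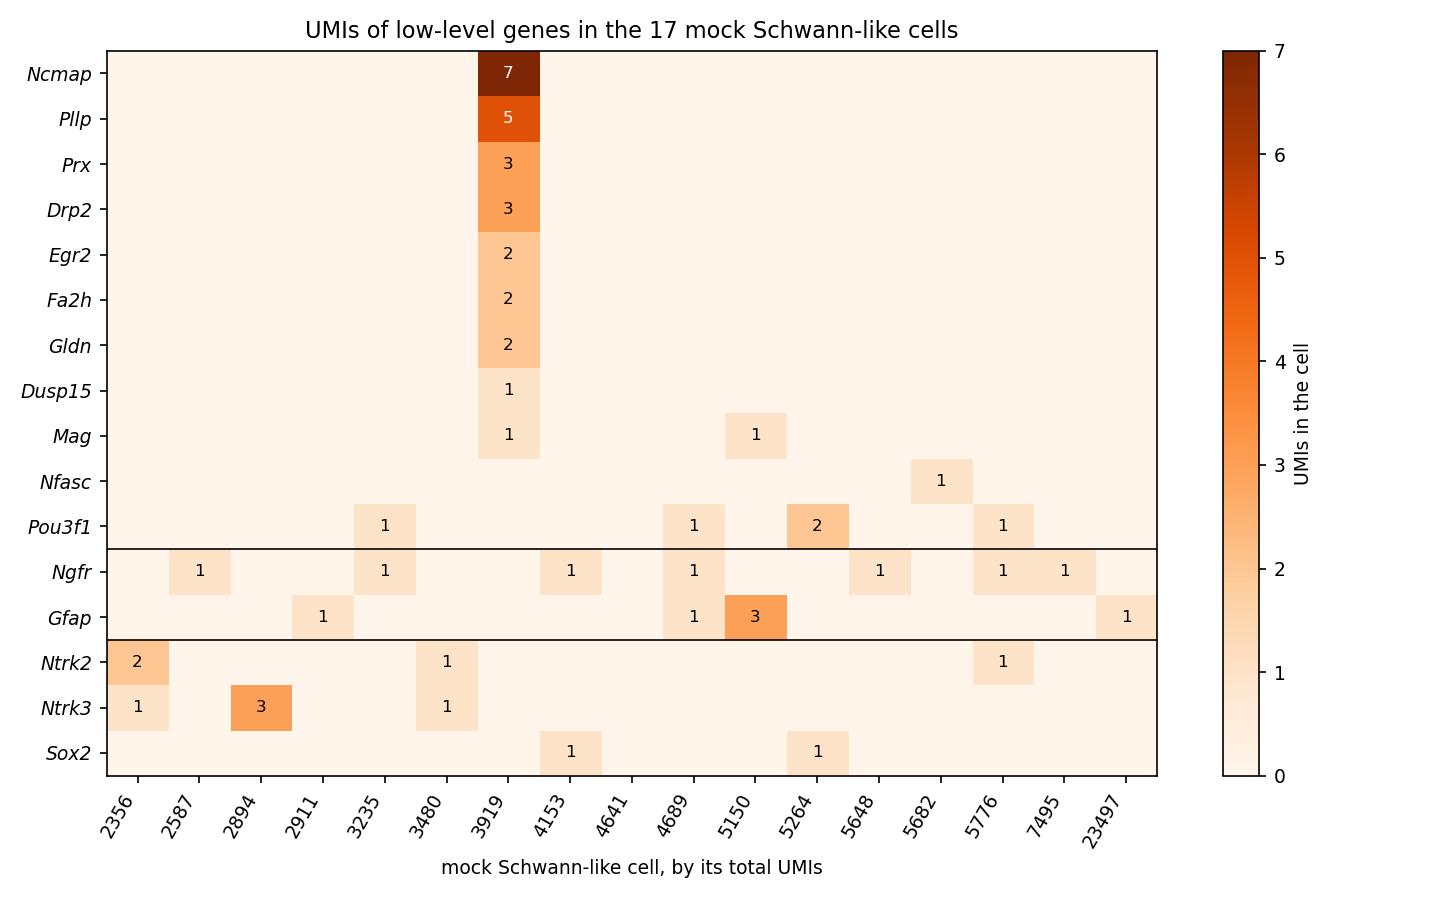
UMIs of genes with a low mock level (rows) in each of the 17 mock Schwann-like cells (columns, ordered by total UMIs), with the number of UMIs in each filled square; lines separate the myelin list, the non-myelinating list and other genes. The column of 3919 UMIs holds all UMIs of the first 8 genes. Ngfr has 1 UMI in each of 7 of the 17 columns.

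Markers of other cell types were present in the Schwann-like cells and differed between the libraries. The 11 fibroblast markers summed to 28.7 in ligated and 55.0 in mock cells, led by Gsn and Col3a1, while Pdgfra was 0.0481 and 0 and Dcn 0.707 and 0. The 11 endothelial markers summed to 13.2 and 9.74, with Cldn5 at 0 in the mock cells. The 10 NK markers summed to 6.62 and 4.56, with Gzma and Eomes at 0 in the mock cells. The 10 ductal markers summed to 8.90 and 0, of which Klk1 made 8.48. The 13 macrophage markers summed to 2.66 and 0.0501, with 11 of them at 0 in the mock cells, and the 10 T cell markers to 0.895 and 0.0250, with Cd3e and Cd3d at 0 there. For each other-cell marker above a small minimum library mean, the level in Schwann-like cells was divided by the mean over all cells of that library. The median of these ratios was 18.4% in the ligated library (92 markers) and 0% in the mock library (90 markers). One UMI in a single mock cell moved the mock mean by 0.127 at the median. The ligated levels of Pdgfra, Cldn5, Eomes, Cd3e and Cd3d lay under this, and those of Dcn, Gzma and Klk1 above it. A marker at such a low level can be listed at 0 in 17 cells without being absent, which also limits the mock median. In the mock cells, 162 of 167 placed endothelial UMIs and 69 of 83 placed NK UMIs lay in the deepest cell, of 23497 UMIs, which held 1 UMI of Gfap and none of Ngfr. The part of these transcripts in the differences above was not tested.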

How the data were processed

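Droplet (10X) single-cell RNA was measured in 1 ligated and 1 mock library. Cell Ranger 6.0.1, Seurat and mm10 are named in the submitters' processing notes; the filters, clustering and treatment of doublets are not given in the sources used here, and doublets were not called. The authors deposited 4 tables of cluster means, 12 clusters of all cells and 5 of a stromal subset, together and split by library. Each deposited value is a mean share of a cell's UMIs, on a scale of 10000, read from the values: columns sum to 10000 and the joint values are weighted means of the split ones. No count model was possible.

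Cell numbers and the UMI totals of the 17 mock Schwann-like cells were recovered from these means, and UMIs placed in cells by exact search (tolerance 1e-09), tested on simulated data. The search assumes that each value is a whole UMI number over the cell's total. Differences are log2((ligated + 0.1)/(mock + 0.1)), so the differences of weakly expressed genes are shrunk. Clusters are called "-like" from marker lists. Named genes are the 7, list genes where their list is counted, and for each of the 7 the 3 genes with the highest Pearson correlation over clusters; single cells and relatives outside this were chosen after their values were seen. The 7 genes and the lists were chosen with earlier results of these data known. Some list genes are counted but not reported by name here. Promoters are RefSeq's for GRCm38.p6. Python 3.11.15, numpy 2.4.6, pandas 2.3.3, scipy 1.17.1 and matplotlib 3.10.9 were used.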

Additional observations from a re-analysis of the deposited data

How the results depend on the processing

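The counts past the size rule depended on its settings. From 571 higher and 392 lower genes, a pseudocount of 1 gave 55 and 37, and no minimum gave 2307 and 918. A higher level of at least 2 gave 59 and 61, and a size of at least 2 gave 166 and 67. Taking off 18.4% of the ligated library's average profile, and 0% of the mock library's, gave 343 and 688. That setting lowered only ligated levels, so its turn toward lower genes follows from how it was built. A pseudocount of 0.01, leaving out genes listed in 1 library only, and centring kept both counts within 1.5 times. The myelin median moved from -0.85 to -0.73 with a pseudocount of 1. All 7 genes stayed highest in the Schwann-like cluster in either library; over all genes, 1011 were highest there, and 231 with a level of at least 2. Over the settings Mbp ranged from -1.24 to -1.05, Pmp22 from -0.87 to -0.78, S100b from -0.68 to -0.58, Sox10 from -0.0019 to 0.03, Scn7a from 0.15 to 0.18, Ngfr from 0.34 to 0.62 and Gfap from 0.03 to 0.12. In an alternative chosen after seeing the data, without the mock cell of 3919 UMIs, 3 myelin genes in place of 5 were lower, but those 3 were unplaced and keep their full mock level in this count. No paired analysis was possible because each group has 1 library. The 17 mock cells limit every mock level, most of all those of genes under 0.426, the level of 3 UMIs of average weight.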

Other observations

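In the ligated library, cluster 8, led by acinar genes, held low levels of several of the 7 genes: 1.21 of Scn7a, 0.302 of Sox10 and 0.0637 of Gfap, and all 3 were listed at 0 in the 25 mock cells of that cluster. Of the other genes, Ngfr was 0.0597 and 0, S100b 0.124 and 0.0799, Mbp 0.593 and 0.117, and Pmp22 0.571 and 0.383 (ligated and mock). Cluster 11 was led by cell-cycle genes and the neutrophil genes S100a9 and S100a8. It held 0.184 of S100b and 0.0893 of Ngfr in the ligated library, and both were listed at 0 in its 22 mock cells. The ligated library held 271 Schwann-like cells and the mock library 17.

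Tubb3, a tubulin of neurons, had levels of 0.701 (ligated) and 0 (mock) in Schwann-like cells. Snap25, Elavl4 and Nefl, 3 further neuronal genes, were listed at 0 there in both libraries.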
